A study of Mus musculus with 2 samples.

Results

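The Iroquois homeobox factors are a family of 6 transcription factor genes, Irx1 to Irx6, and their transcripts were followed in cardiac ventricles of adult mice. The members were chosen by gene symbol and are 6 of the 38355 genes in the authors' deposited table. The study set vTBX5KO ventricles, from mice labelled Myh6-MerCreMer and Tbx5LDN/LDN, against Flox ventricles, from mice labelled Tbx5LDN/LDN alone. The mice of both groups were C57BL/6 and 16 weeks old, and both are described with the same course of TX, a daily 30 mg/kg given on 3 days from 12 weeks of age, with the tissue taken 4 weeks later. The Myh6 promoter drives the transgene in cardiomyocytes of atria and ventricles, and other cell types of the ventricle are not targeted. The transgene was carried by the vTBX5KO mice alone, so an effect of the transgene itself and an effect of the cut allele cannot be told apart. The values come from a single comparison that sets group B over group A. No source used here says which genotype each letter stands for, and every direction below is that of group B relative to group A.

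Iroquois proteins bind DNA through a homeodomain of the TALE class, whose members carry extra residues in the loop between the first helices and often act as partners of other transcription factors. In mammals the genes lie in a pair of clusters, one with Irx1, Irx2 and Irx4 and one with Irx3, Irx5 and Irx6. In the mouse heart Irx4 is known as a ventricular factor, Irx3 as a factor of the fast-conducting His-Purkinje system that regulates connexin genes, and Irx5 as a factor of the gradient in potassium channel expression across the ventricular wall.

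The letters that code for the homeodomain show how close the 6 genes are, which bears on how reads can be told apart. A stretch of 88 bases in the homeodomain-coding sequence is identical in Irx3 and Irx6 and nearly so in the others. The sequences are from GENCODE M21 transcripts on GRCm38, written 5′ to 3′ along the transcript, and capitals mark bases that differ from Irx3.
Irx3: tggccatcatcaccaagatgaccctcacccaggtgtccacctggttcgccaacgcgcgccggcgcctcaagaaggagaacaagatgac
Irx6: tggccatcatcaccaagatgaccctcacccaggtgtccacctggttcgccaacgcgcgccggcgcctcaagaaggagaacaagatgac
Irx5: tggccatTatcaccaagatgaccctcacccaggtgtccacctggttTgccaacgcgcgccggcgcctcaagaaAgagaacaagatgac
Irx1: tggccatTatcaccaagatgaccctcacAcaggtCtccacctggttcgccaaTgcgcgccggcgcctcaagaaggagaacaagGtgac
Irx4: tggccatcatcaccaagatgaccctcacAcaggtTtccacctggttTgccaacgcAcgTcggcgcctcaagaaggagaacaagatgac
Irx2: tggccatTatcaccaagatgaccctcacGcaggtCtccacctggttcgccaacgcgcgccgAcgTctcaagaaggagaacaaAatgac
The stretch lies within 1 exon of each gene, at chr8:91800491-91800578 on the minus strand for Irx3, chr8:92677342-92677429 on the plus strand for Irx6, chr8:92359733-92359820 on the plus strand for Irx5, chr13:71959987-71960074 on the minus strand for Irx1, chr13:73267629-73267716 on the plus strand for Irx4 and chr13:72630770-72630857 on the plus strand for Irx2. Irx5 shared 85 of the 88 bases with Irx3, Irx1 and Irx4 shared 83, and Irx2 shared 82. Of the 50-base windows of the Irx3 transcripts, 115 of 2762 also occurred in another gene (Irx5, Irx6 or the antisense RNA over Irx3), against 17 of 3078 for Irx5, 16 of 3324 for Irx2, 119 of 3368 for Irx6 and 0 for Irx1 and Irx4. How the authors counted reads that fit several genes, or reads from opposite strands, is not stated, so a small share of the Irx3, Irx5 and Irx2 reads is uncertain. RefSeq promoters of GRCm38.p6, 250 bases before to 50 after the gene start, were at hand for 3 of 6 members, Irx2, Irx3 and Irx4. The RefSeq start of Irx3 lies inside the span that the deposited table gives the gene, so the bases before that span were not searched for Irx3. On either strand the 3 promoter windows held no match to the T-box half-site GGTGTG, present in 19.05% of 32851 promoters of that length, and none to the Iroquois site ACANNTGT, present in 7.38%. This says only that these letters are not in these windows.

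Reads per library were recovered from the deposited means, which resolved into 3 libraries of group B (B1, B2 and B3) and 3 of group A (A1, A2 and A3), each numbered from the deepest. The size factors, which scale each library to a common depth, were 1.56, 1.35 and 0.89 in group B and 1.16, 0.80 and 0.61 in group A. The sources do not say if the libraries of one letter are separate animals, and the p-values then reflect only how far these libraries spread, which can be technical. All 12 ventricular cardiomyocyte markers had reads, and of the lung epithelium markers Nkx2-1 and Cldn18 were at 0. In group B, B1 and B3 stood apart from each other. B1 was more than 2-fold above the other group B libraries in 5.95% of 3342 genes, and B3 was more than 2-fold below them in 7.51%. The corresponding shares in the other 4 libraries were at most 4.49% above and 3.56% below.

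Irx4 was the most abundant Iroquois transcript and Irx6 had no read. Per kb of annotated exon, the mean normalized count over all libraries in the authors' deposited table was 221 for Irx4, 77.5 for Irx3, 32.7 for Irx5, 29.8 for Irx2 and 28.9 for Irx1. The 0 reads of Irx6 allow up to 3 reads over all 6 libraries, or 0.140 normalized counts per kb of exon. Irx4 was also first among the 17 TALE homeobox genes reported here on this scale, ahead of Pbx2 at 78.6, Meis2 at 49.8, Meis1 at 48.9 and Pknox1 at 43.9 normalized counts per kb of exon in the authors' deposited table. Without division by exon length Meis2 was higher, at 599 normalized counts against 577 for Irx4. The exon length covers every annotated exon, 12.0 kb for Meis2 and 2.61 kb for Irx4, whether or not it is used here. Pbx and Meis proteins are partners of Hox and other factors. On the scale per kb, Irx3 came next after Pbx2, and Irx5, Irx2 and Irx1 lay together with Pbx3, at 30.3 in the authors' deposited table. Irx3 had the highest level per kb of the 4 members read per library in all 6 libraries, from 48.8 to 107 normalized reads per kb. Irx5, Irx2 and Irx1 did not keep an order across libraries. Irx5 stood above Irx2 and Irx1 per kb in B1 and in the 3 libraries of group A, and below both in B2 and B3. The remaining TALE genes were Meis3 at 22.6, Pknox2 at 12.0, Tgif1 at 7.996, Tgif2 at 2.74, Mkx at 1.36 and Pbx4 at 0.535 normalized counts per kb of exon in the authors' deposited table.

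**Figure D1:**
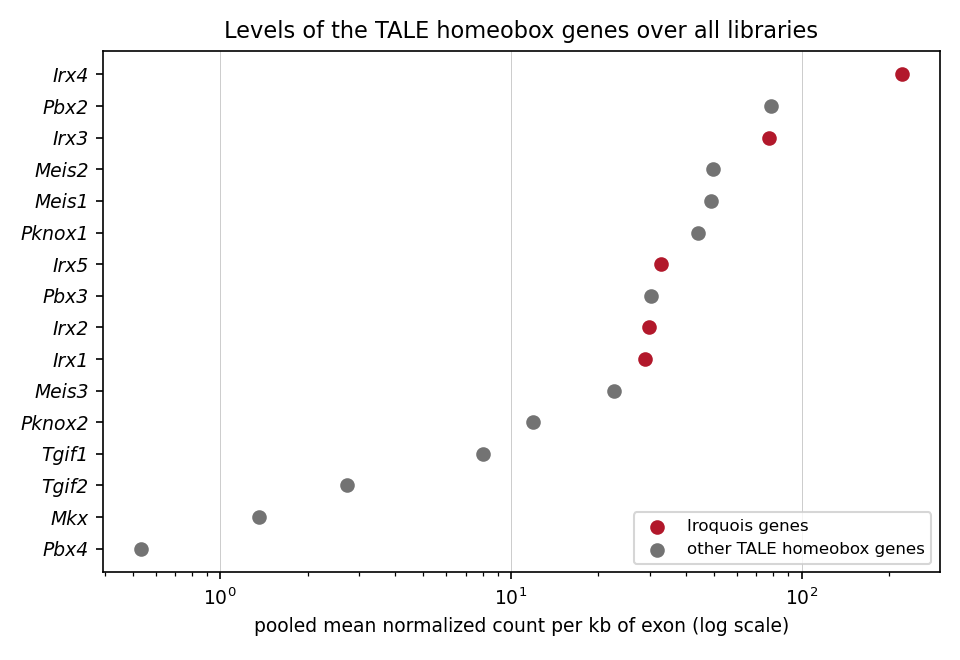
Mean normalized count per kb of exon (log axis), pooled over both groups, for the TALE homeobox genes reported here that had reads, with Iroquois genes in red and the others in grey. Irx4 lies alone at 221, Irx3 at 77.5 sits beside Pbx2 at 78.6, and Irx5, Irx2 and Irx1 lie between 28.9 and 32.7. Irx6, with 0 reads, has no place on a log axis.

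The group comparison asks whether ventricular Iroquois transcripts differ between Tbx5-deleted and control mice. Irx3 and Irx5, the members of the chromosome 8 cluster with reads, had the lowest fold changes of the family, and neither passed the test. Irx5 (ENSMUSG00000031737, GRCm38 chr8:92357796-92361456, plus strand) had 111, 51.7 and 53.9 normalized reads in B1, B2 and B3, against 132, 100.5 and 165 in A1, A2 and A3. B2 and B3 were below every group A library, B1 was above A2, and the groups overlapped. Several sets of reads fitted the pooled mean of Irx5. The set used was the only one within a range chosen after the data were seen. The means were 72.3 ± 33.7 normalized reads in group B and 132.5 ± 32.1 in group A (SD, n = 3 libraries each), a ratio of 0.545, with p = 0.20 in an exact two-sided permutation test, whose smallest possible p for 3 against 3 is 0.10. In the authors' deposited table, whose fold changes are shrunken towards 0, Irx5 had a log2 fold change of -0.66, or 1.58-fold lower in group B, at a standard error no larger than 0.28 (adjusted p 0.203). Of the 13230 genes tested there, 1.22% had a fold change as low or lower. In bulk tissue, fewer cells of a type and less RNA per cell cannot be told apart.

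Irx3 (ENSMUSG00000031734, GRCm38 chr8:91798511-91802067, minus strand) had 223, 148 and 135 normalized reads in B1, B2 and B3, against 227, 255 and 297 in A1, A2 and A3. The groups did not overlap, but B1 lay within 4 normalized reads of A1. Of all recovered genes with an adjusted p, 19.2% had groups that did not overlap, and 6.11% had this with group B lower. The set of reads for Irx3 was chosen among 60 that give its mean, partly by the deposited fold change, and by a limit on the spread within a group, so its separation, its ratio and any p-value of its reads are no independent measure, and its values per library are less firm than those of Irx5, Irx1 and Irx2. The means were 168.5 ± 47.7 normalized reads in group B and 259 ± 35.1 in group A (SD, n = 3 libraries each), a ratio of 0.650. In the authors' deposited table Irx3 had a log2 fold change of -0.54, or 1.45-fold lower in group B, at a standard error no larger than 0.22 (adjusted p 0.171), and 2.35% of the genes tested were as low or lower.

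**Figure D2:**
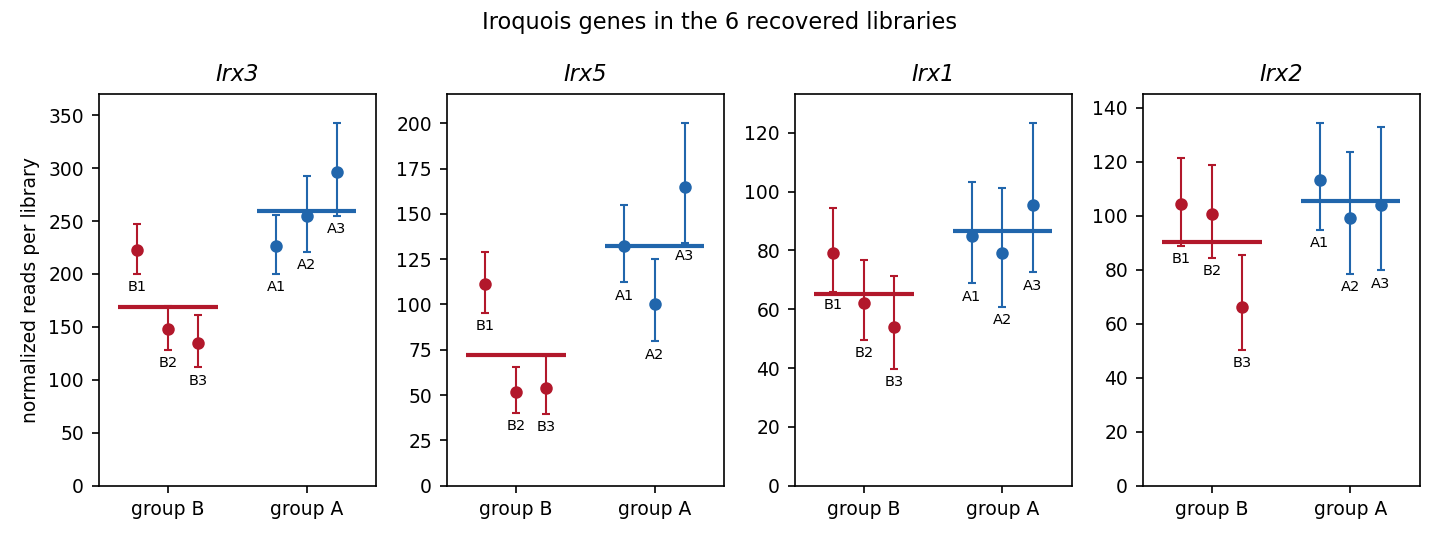
Normalized reads per library (reads divided by the size factor, axes from 0) for Irx3, Irx5, Irx1 and Irx2, with group B in red and group A in blue, bars for exact 95% Poisson intervals of the counts and horizontal lines for group means. For Irx3 and Irx5, B2 and B3 lie below the 3 group A libraries, while B1 lies at 223 for Irx3 and 111 for Irx5.

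Among the chromosome 13 members, Irx1 and Irx2 lay below 0 and Irx4 above, each with a 95% interval that includes 0. Irx1 (ENSMUSG00000060969, GRCm38 chr13:71957921-71963723, minus strand), which is expressed with Irx2 in the ventricular septum, had 79.3, 62.1 and 53.9 normalized reads in B1, B2 and B3, against 84.8, 79.1 and 95.5 in A1, A2 and A3. B2 and B3 were the lowest, and B1 was level with A2. Irx1 averaged 65.1 ± 12.95 normalized reads in group B and 86.5 ± 8.33 in group A (SD, n = 3 libraries each), with p = 0.20 in the exact two-sided permutation test. Its log2 fold change in the authors' deposited table was -0.35, with a standard error no larger than 0.21 (adjusted p 0.472). Irx2 (ENSMUSG00000001504, GRCm38 chr13:72628820-72634196, plus strand) had 104, 100.5 and 66.2 normalized reads in B1, B2 and B3, against 113, 99.3 and 104 in A1, A2 and A3. B3 alone was below the range of group A. The overlap of Irx1 and of Irx2 depended on the scaling. When libraries were scaled to a median log2 ratio of 0, which shifts every difference by -0.11, the groups separated for both genes, with the smallest possible p of 0.10 in the exact permutation test, and 9.95% of the recovered genes with an adjusted p then had group B lower without overlap. This scaling used only recovered genes with a mean of at least 16. Genes above a mean of 100, apart from Irx3 and Irx5, were not recovered and had no part in it. Under the authors' scaling the median log2 fold change over all genes tested was -0.00. The Irx2 means were 90.3 ± 20.9 normalized reads in group B and 105.5 ± 7.19 in group A (SD, n = 3 libraries each), with p = 0.50 in the exact two-sided permutation test. The authors' deposited table gave Irx2 -0.19 on the log2 scale, with a standard error no larger than 0.21 (adjusted p 0.788).

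Irx4 (ENSMUSG00000021604, GRCm38 chr13:73260497-73269607, plus strand), the ventricular member, averaged 577 normalized counts in the authors' deposited table, too many for its reads per library to be recovered. Its log2 fold change in the authors' deposited table was 0.24, or 1.18-fold higher in group B, and its standard error was no larger than 0.21 (adjusted p 0.714). The 95% interval at that standard error ran from -0.18 to 0.65 on the log2 scale. Irx6 (ENSMUSG00000031738, GRCm38 chr8:92674289-92680956, plus strand) had no read in any library and thus no fold change.

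With calls at 0.05 on the adjusted p, the authors' deposited table called none of the 5 members it tested, and 3.98% of all 13230 genes. The largest unadjusted p that each adjusted p allows was under 0.05 for 2 of the 5, Irx3 at 0.0144 and Irx5 at 0.0195, as it was for 14.8% of all genes tested. At these standard errors the 95% intervals in log2 were -1.21 to -0.11 for Irx5, -0.97 to -0.11 for Irx3, -0.76 to 0.06 for Irx1 and -0.60 to 0.22 for Irx2. A limma-voom refit of the recovered reads, with Benjamini-Hochberg adjustment over 8409 genes, called 0.511% of them and none of the members it held. In this refit the log2 fold changes were -0.87 for Irx5 (standard error 0.27, adjusted p 0.190), -0.38 for Irx1 (standard error 0.22, adjusted p 0.526) and -0.22 for Irx2 (standard error 0.21, adjusted p 0.734). Of these 3 genes, Irx5 had an unadjusted p under 0.05 (0.00464), as did 983 of the 8409 genes in this refit. The refit gave Irx3 -0.61 on the log2 scale, with no p read from it because of how its reads were chosen.

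The call of Irx5 turned on library B1 and on the filter. Without B1 the limma-voom refit gave Irx5 a log2 fold change of -1.28 (adjusted p 0.00441), which is a call, with 1.14% of the 8409 genes called in that fit. Without any filter on the mean, which adds genes with very few reads, Irx5 was called too, with a limma-voom adjusted p of 0.0151 and 1.72% of 13390 genes called. Leaving out any of the other 5 libraries did not call Irx5, in fits that called 0.107% of the genes without A1, 0.214% without A2, 0.428% without A3, 0.119% without B2 and 3.21% without B3. The Irx5 log2 fold change ran from -1.28 to -0.63 over the 6 fits. Irx1 and Irx2 were called in none of these fits and stayed below 0 in each, Irx2 from -0.33 to -0.06. Without B3 the Irx2 difference was -0.06, against -0.22 with all libraries.

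**Figure D3:**
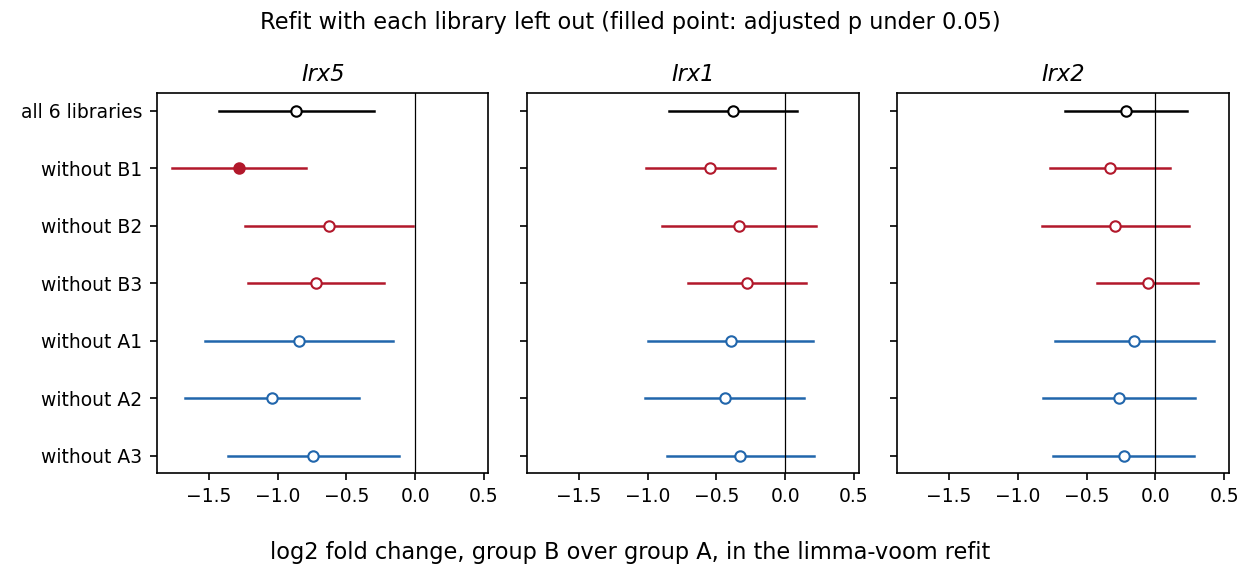
Log2 fold change of group B over group A in the limma-voom refit with all 6 libraries and with each library left out, with lines for 95% intervals and filled points for an adjusted p under 0.05. The panels are Irx5, Irx1 and Irx2. The 1 filled point is Irx5 at -1.28 without B1, and every point of the 3 genes is below 0.

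The 4 members read per library varied together to different degrees. Over the 6 libraries, which share depth scaling and the split into groups, Pearson's r of the log2 values was 0.968 between Irx1 and Irx3, 0.968 between Irx1 and Irx5 and 0.945 between Irx3 and Irx5. With Irx2 it was 0.793 for Irx1, 0.676 for Irx3 and 0.654 for Irx5. The values with Irx3 rest on reads chosen partly by the group difference, and no difference between these correlations was tested. The summed normalized reads of Irx3 and Irx5 over those of Irx1 and Irx2 were 1.82, 1.23 and 1.57 in B1, B2 and B3, against 1.81, 1.99 and 2.31 in A1, A2 and A3. B2 and B3 had the lowest ratios and B1 was level with A1, so the groups overlapped.

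The genes most like each member across the 6 libraries, among 3331 with an adjusted p and recovered reads, were given by Pearson's r as a description. For Irx1 they were Fbxo17, a subunit of a ubiquitin ligase, at 0.998, the zinc finger factor Bcl11b at 0.992 and the pseudogene Rps16-ps2 at 0.987. Fbxo17 had 19.8, 11.8 and 8.98 normalized reads in B1, B2 and B3, against 21.6, 18.8 and 26.4 in A1, A2 and A3, and thus kept the same order of libraries as Irx1. For Irx5 they were Zswim1 at 0.975, Fbxo17 at 0.968 and Irx1 at 0.968. For Irx3, with the same limit on its reads, they were the kinase Pak4 at 0.972, the adhesion receptor Gpr97 at 0.971 and Wdr54 at 0.969. For Irx2 they were Gm5812 at 0.991, the ciliary gene Tctn2 at 0.987 and Gar1, a protein of small nucleolar particles, at 0.983, all low in B3. These values were picked as the highest of many and carry no test.

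The TALE genes outside the family gave a wider view of the homeobox class. Of 11 such genes, the authors' deposited table tested 8, none was called and none had an unadjusted p that was under 0.05 at its largest. Their median log2 fold change was 0.05, against -0.00 over all genes tested. Values in the authors' deposited table ran from -0.30 for Tgif1, a repressor in TGF-beta signalling, to 0.16 for Meis1, with -0.18 for Pbx2, -0.15 for Pknox1, 0.02 for Pknox2, 0.09 for Meis2, 0.10 for Pbx3 and 0.14 for Meis3. Irx5 and Irx3 lay below all 8. No test of the family against the other TALE genes was made.

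**Figure D4:**
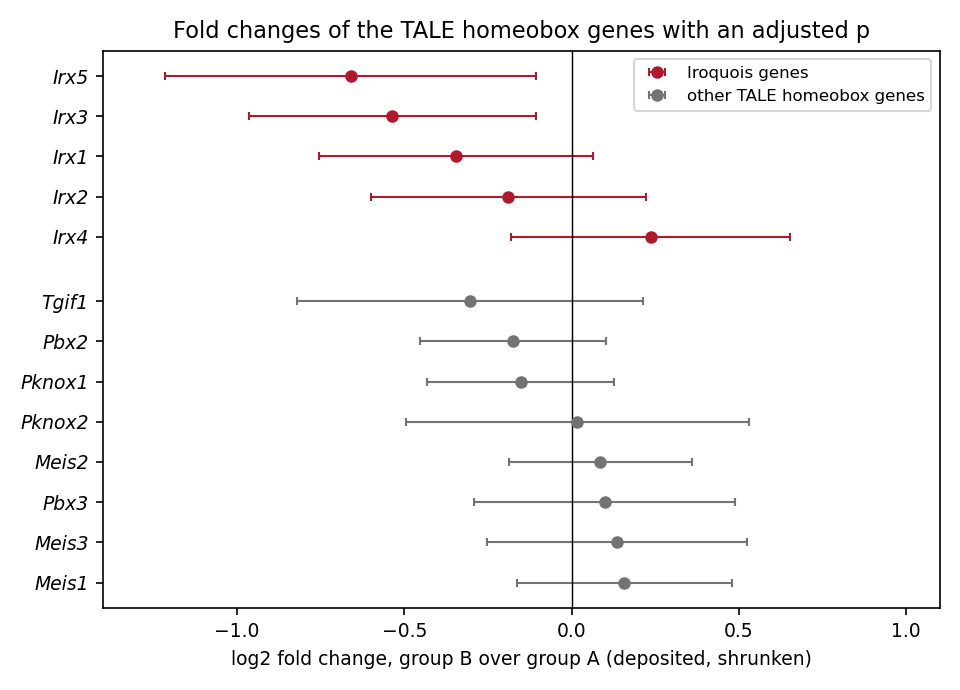
Log2 fold change of group B over group A in the authors' deposited table for the TALE homeobox genes reported here with an adjusted p, Iroquois genes in red above the others in grey, with bars for 95% intervals at the largest standard error that the adjusted p allows. Irx5 at -0.66 and Irx3 at -0.54 are the lowest values and their bars end below 0, while every other bar crosses 0.

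Genes around the clusters were set beside the members. The chromosome 13 cluster spans 1.31 Mb, with 665 kb from Irx1 to Irx2 and 626 kb from Irx2 to Irx4, and the chromosome 8 cluster spans 0.882 Mb, with 556 kb from Irx3 to Irx5 and 313 kb from Irx5 to Irx6. Within 1 Mb of a member the authors' rows listed 56 other genes, of which 12 were without reads and 20 were tested. Of these 20, 1 was called lower in group B, 0 higher, and the median log2 fold change was -0.02. Among all genes tested, 2.49% were called lower and 1.5% higher. The called gene was Ndufs6, a subunit of respiratory complex I, 50.3 kb from Irx4, at -0.29 on the log2 scale (adjusted p 0.0368) in the authors' deposited table. Around Irx3 and Irx5 the 9 tested neighbours ran from -0.16 for Aktip to 0.40 for Chd9 in the authors' deposited table. Fto, whose introns are known to hold elements that contact Irx3, lies 130 kb from Irx3 and stood at 0.15 on the log2 scale (adjusted p 0.901) in the authors' deposited table. The others were 4933436C20Rik at -0.08 (adjusted p 0.949), Rbl2 at 0.04, Rpgrip1l at 0.06, Mmp2 at 0.08, Ces1d at 0.12 and Lpcat2 at 0.24 in the authors' deposited table. Beside Irx4 the neighbours ran from Ahrr at -0.42 to Cep72 at 0.37 in the authors' deposited table.

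Noncoding transcripts next to the members were also read, D230002A01Rik and Gm20554 at low levels. 4933436C20Rik, named Crnde in GENCODE M21 and 1.7 kb from Irx5 on the opposite strand, had 44.1, 48.0 and 69.6 normalized reads in B1, B2 and B3, against 60.6, 65.3 and 42.8 in A1, A2 and A3. The groups overlapped, and B3, where Irx5 was low, held the highest value. D230002A01Rik, named Irx3os in GENCODE M21, overlaps Irx3 on the opposite strand and had 6.39, 5.17 and 4.49 normalized reads in B1, B2 and B3, against 6.92, 7.54 and 6.59 in A1, A2 and A3. All 3 group B values were lower, from 4 to 10 reads per library, and whether reads of Irx3 and this antisense RNA were separated by strand is not stated. Gm20554, 1.8 kb from Irx2, had 7.03, 6.65 and 5.61 normalized reads in B1, B2 and B3, against 8.65, 7.54 and 9.88 in A1, A2 and A3, which likewise did not overlap at 5 to 11 reads per library. Of 1214 recovered genes with a mean from 5 to under 10, 4.28% had group B lower without overlap.

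**Figure D5:**
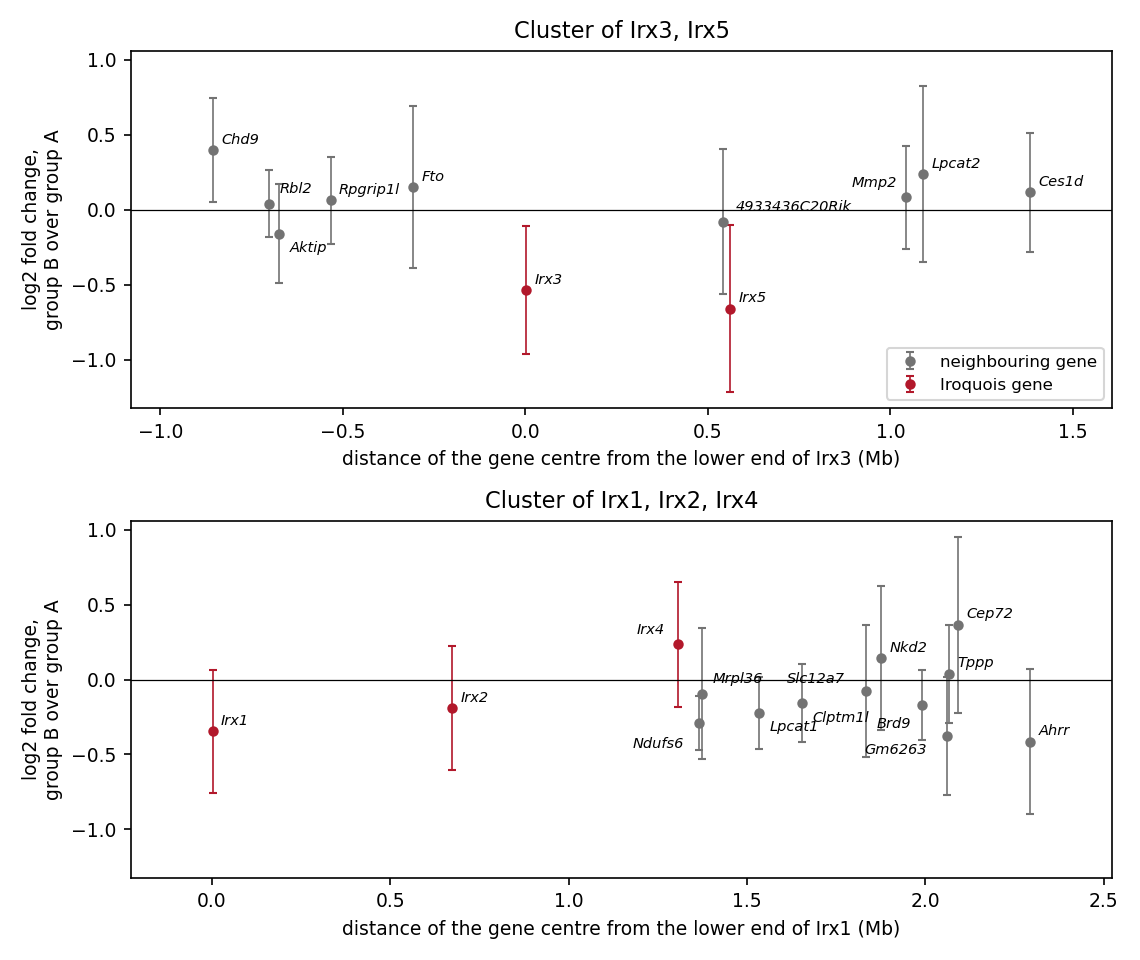
Log2 fold change of group B over group A in the authors' deposited table for genes with an adjusted p, by distance in Mb from the lower end of Irx3 (upper panel) or Irx1 (lower panel), Iroquois genes in red, neighbours within 1 Mb in grey, bars for 95% intervals at the largest standard error. Irx3 and Irx5 lie below their 9 neighbours, which range from -0.16 to 0.40.

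Reported partners of Iroquois proteins were read next. Of 11 listed, the authors' deposited table tested 9, none was called at 0.05, and the median log2 fold change was -0.13. In 2 of the 9 the unadjusted p was under 0.05 at its largest, as in 14.8% of all genes tested. The 2 partners were Tbx5, the T-box factor targeted in the study and a reported partner of Irx3, at a log2 fold change of 0.92 (adjusted p 0.0575), and the retinoid receptor Rxrg at -0.45 (adjusted p 0.101) in the authors' deposited table. Nkx2-5, a cardiac homeobox factor that also partners Irx3, stood at -0.51 (adjusted p 0.353), and Trps1, a zinc finger partner of Irx5 in humans, at 0.23 (adjusted p 0.422) in the authors' deposited table. The labels do not say which exons the allele removes, and the Tbx5 row counts the gene as a whole, so it does not tell which letter is the knockout.

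Genes reported as cardiac targets of Iroquois factors included several that were called. Of 25 listed, the authors' deposited table tested 20, 4 were called lower in group B, none higher, and the median log2 fold change was -0.26, beside 2.49% called lower and 1.5% higher over all genes tested. Gja1, the gap junction protein connexin 43 that Irx3 is reported to repress, had a log2 fold change of -2.23 (adjusted p 1.6e-29) in the authors' deposited table. Kcnip2, the subunit of the transient outward potassium channel that is graded across the wall, stood at -0.80 (adjusted p 2.46e-12), while the T-type calcium channel gene Cacna1g stood at -1.15 (adjusted p 0.00169) in the authors' deposited table. The last was the natriuretic peptide gene Nppb at -1.15 (adjusted p 0.0137) in the authors' deposited table. Named after their values were seen are Gja5, the connexin that Irx3 is reported to activate, at -0.56 (adjusted p 0.185), and Kcnd2, the channel that Irx5 is reported to repress, at -0.21 (adjusted p 0.417) in the authors' deposited table. Irx3, Irx5, Gja5 and Kcnd2 were not called in the authors' deposited table, so their side of 0 is not read against the reported regulation. The list does not separate Iroquois genes from other regulators of these targets, and their part was not tested.

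Cell type markers were set beside the Iroquois values. Conduction system markers, since Irx3 marks that system, summed over the 7 of 16 with recovered reads to 240 to 299 normalized reads in group B and 221 to 285 in group A, which overlapped. Of its 14 genes tested in the authors' deposited table, 1 (Cacna1g) was called lower, and the median was -0.05. Scn10a, a sodium channel in that list without an adjusted p there and named after its values were seen, had 5.75, 0.739 and 1.12 normalized reads in B1, B2 and B3, against 26.0, 20.1 and 24.7 in A1, A2 and A3, with a limma-voom log2 fold change of -3.33 (adjusted p 0.0128). Others of the list, also named after their values were seen, were higher in every group B library. Etv1 had 112, 121 and 87.6 normalized reads in B1, B2 and B3, against 74.4, 77.9 and 54.4 in A1, A2 and A3, and Kcne1 had 44.1, 43.6 and 59.5 in B1, B2 and B3, against 28.6, 40.2 and 21.4 in A1, A2 and A3.

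Markers of other cell types and tissues were summed in the same way. Adipocyte markers summed to 107, 100.5 and 443 normalized reads in B1, B2 and B3, against 23.4, 54.0 and 364 in A1, A2 and A3, over 7 of 10 genes. Mesothelial markers summed to 322, 384 and 428 in group B, against 121, 202 and 507 in group A, over 9 of 10 genes. A3, highest of its group in both sums, also had the highest Irx3, Irx5 and Irx1, whereas B3, highest of group B in both, had the lowest Irx3 and Irx1. Atrial markers, over 3 of 12 genes, summed to 51.8, 50.2 and 38.2 in group B, against 30.3, 36.4 and 107 in group A, and the atrial gene Bmp10 had 2.56, 17.0 and 1.12 normalized reads in group B, against 0, 0 and 72.5 in group A. A3 thus stood apart in atrial markers as well. Skeletal muscle markers summed to 42.8, 45.8 and 47.1 in group B, against 55.4, 69.1 and 70.8 in group A, over 7 of 10 genes, and did not overlap. This separation was that of 1 gene, Tnni2, a fast troponin, at 4.47, 4.43 and 7.86 normalized reads in group B, against 20.8, 25.1 and 29.7 in group A. The other 6 genes summed to 38.4, 41.4 and 39.3 in group B, against 34.6, 44.0 and 41.2 in group A, which overlapped. Lung markers, over 8 of 10 genes, stayed between 5.75 and 10.1 in group B and 6.59 and 14.7 in group A. Nerve markers summed over 8 of 10 genes to 180 to 230 in group B and 221 to 320 in group A, and 2 of 6 tested, Dbh and Uchl1, were called lower in the authors' deposited table. Calls in the other lists were Clu lower of 9 atrial genes, Actc1 lower of 12 ventricular genes, Abcc9 lower of 10 smooth muscle genes, Mfap5 higher of 12 fibroblast genes, Mrc1 and F13a1 higher of 10 macrophage genes and none of 12 endothelial, 7 mesothelial, 7 adipocyte and 3 skeletal muscle genes in the authors' deposited table. The part of any of these in the Irx3 and Irx5 values was not tested.

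Gene span is a property the members share. Their loci span 3557 to 9111 bases. The 2387 genes tested with a span of 3 to 10 kb had a median log2 fold change of -0.06 in the authors' deposited table. Of these genes, 3.6% were called lower in group B and 1.17% higher. Over all genes tested the median was -0.00, with 2.49% called lower and 1.5% higher.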

How the data were processed

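RNA-seq of mouse cardiac ventricles was analysed from 1 deposited table, a comparison of group B with group A. Per the submitters' processing notes, Bowtie2 2.0, DESeq2 and build mm9 were used, with no role or order given. The coordinates in the table were identical to GENCODE M21 (GRCm38) for 69.6% of 36602 genes and are given as GRCm38. Per the file headers, the deposited signal is a mean normalized count over all libraries, the deposited log2 fold change sets group B over group A, and the authors' p-value is adjusted. Fold changes near 0 at genes with 1 read show that they are shrunken. The adjustment was inverted to bound each standard error.

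Genes with 1 read gave 6 step values, and each mean under 100 was solved as whole reads per library to 15 digits. A single set fitted 13388 of 13403 genes. Several sets fitted Irx5, at a mean of 102, some with group B higher, whereas Irx1 and Irx2 had 1 set each. Only 1 of the Irx5 sets had every library within 0.25 to 3.5 times its mean, a range that held for 99.3% of 1105 recovered genes. Irx3 had 60 such sets, of which 1 lay within the shrinkage and spread of 80 recovered genes with an adjusted p from 0.1 to 0.3. Both rules were added after the data were seen. Total library reads were not used. Poisson intervals and the limit from 0 reads (3 reads) cover counting error only.

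Reads were refitted with limma 3.58.1 (voom, R 4.3.3), by letter, for genes with a mean of at least 1, with scaling by the recovered size factors. Exact permutation tests used log2(normalized reads + 0.5). Calls were at an adjusted p under 0.05. Members, 3 gene lists and 12 marker lists were chosen with earlier results of these data known, and 1 gene in each of 2 gene lists is not reported here and was left out of their counts. Named genes were the members, the TALE list, tested neighbours within 1 Mb and the 3 genes most like each member. Of the partner and target lists, up to 4 genes each with the smallest adjusted p were named. Of the marker lists, the called genes were named. Other genes, among them Gja5, Kcnd2, Scn10a, Etv1, Kcne1, Tnni2 and Bmp10, were named after their values were seen. Steps were tested on simulated data. Python 3.11.15, numpy 2.4.6 and scipy 1.17.1 were used. The letters were not mapped to genotype.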

Additional observations from a re-analysis of the deposited data

How the results depend on the processing

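Of 100 recomputed values, 94 kept their direction and side of the threshold. Many of the 100 could not have crossed it, since the exact permutation p is never below 0.10. Likewise, a list with 0 calls at 0.05 also has 0 at 0.01. The 94 is thus no measure of robustness. In the limma-voom refit, Irx5 at -0.86 (adjusted p 0.0151) passed without a filter on the mean and at -1.28 (adjusted p 0.00441) without B1. Irx3 was at -0.60 and -0.84 in these fits, with adjusted p-values that support no call, because its reads were chosen partly by fold change and spread. The cause was not tested. At an adjusted p under 0.10, 1 partner (Tbx5) was called higher, against 0 at 0.05, and at 0.01, 0 neighbours were called lower, against 1. Leaving out each library in turn gave per-library log2 differences of -0.57 to -0.30 for Irx1, -0.37 to -0.04 for Irx2, -0.87 to -0.51 for Irx3 and -1.29 to -0.74 for Irx5, and refit values of -0.55 to -0.28, -0.33 to -0.06, -0.84 to -0.48 and -1.28 to -0.63. Other scalings were computed from the recovered genes alone. They shifted every difference by -0.11, the direction of the Irx1, Irx2, Irx3 and Irx5 values, and Irx4 could not be rescaled. The refit called 43 genes, but 9 without A1, 18 without A2, 10 without B2, 96 without B1, 270 without B3, 21 at a mean of at least 16 and 230 without a filter. No paired analysis was possible because no replicate number links the libraries of both letters. With 48 to 349 reads per member and library, and 3 libraries a letter, a difference of the size seen for Irx5 did not pass the refit with all libraries.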
